A study of Drosophila melanogaster with 6 samples.

Results

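The genes described here are the 67 protein-coding genes of Drosophila melanogaster that carry only a CG number as their current symbol and that were higher in female than in male midguts. A CG number is the identifier of a predicted gene from the fly genome annotation, and most genes that keep it have not been named after a mutant or a studied product. Members were chosen from the values themselves: among 15682 identifiers in the count tables, 5836 had a CG-numbered symbol and 2020 of those averaged at least 5 CPM (counts of a gene per 1000000 counts of the library) over the 6 libraries. Of the 2020, 74 had a female mean of at least 1.7 times the male mean and a lowest female library above the highest male library. The choice left out 4 of these by name (CG4991, CG16700, CG6296 and CG12374) and 3 known as M14 carboxypeptidases (CG8560, CG14820 and CG17633). CG6295, also named for leaving out, did not meet the thresholds. None of the 74 was known as an aspartic protease. Since the sex difference chose the members, it is described for them with no test.

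The libraries were made from dissected midguts, the section of the gut where food is digested and absorbed, taken from virgin flies of the strain w1118, a white-eyed laboratory stock. Flies of both sexes were 15 days old, lived at 29 °C and were kept at no more than 15 to a vial. The labels call the flies wild type (WT) and name no treatment. The deposited tables carry the tag ESG, which the labels do not explain, so whether the flies carried a further allele is unknown here. Females gave 3 libraries and males 3, with 30 midguts pooled for each. Whether replicates were reared in separate cultures is not stated in the labels, so any p-value measures the spread between these pools, which may be technical. Totals were 23825935 to 33278485 counts in the female libraries and 30600544 to 38406746 counts in the male libraries.

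The midgut epithelium is made mostly of enterocytes, which secrete proteases and lipases into the lumen and take up the products through transporters in their apical membrane. Enteroendocrine cells, which release peptide hormones, and stem cells with their progeny lie among them, and a sheath of visceral muscle surrounds the tube. Ribosome biogenesis, the making of ribosomal RNA and its assembly with proteins in the nucleolus, supplies the ribosomes that secretory cells use for bulk protein synthesis.

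All 6 enterocyte markers in the table were detected at a mean of at least 1 CPM, with summed levels of 42857 to 51510 CPM in the female libraries and 38439 to 45900 CPM in the male libraries. Most of each sum came from the trypsin genes alphaTry (25024.5 to 30969.6 CPM in females, 22936 to 27020.4 CPM in males) and betaTry (16514 to 19418 CPM in females, 14091 to 17654 CPM in males). Myo31DF was higher in males without overlap, at 441 to 570.3 CPM in females and 628 to 725 CPM in males. The libraries of the sexes overlapped for alphaTry, betaTry, nub, mex1 and Npc1b. All 9 enteroendocrine markers were detected too, summing to 534 to 585 CPM in females and 804 to 970.2 CPM in males, ranges that did not overlap. Of the stem cell and enteroblast markers, 3 of 4 in the table reached 1 CPM, with sums of 10.1 to 15.8 CPM in females and 16.1 to 19.2 CPM in males. The stem cell markers esg and Dl were listed too, but no identifier was matched to their symbols, so their levels are not given. The 9 visceral muscle markers summed to 794 to 1708 CPM in females and 1120 to 1945 CPM in males. Fat body and yolk markers reached 1 CPM for 4 of 6 genes, with 54.8 to 295 CPM in females and 8.10 to 28.7 CPM in males; Fbp1 had 0 counts and Lsp2 at most 0.26 CPM. The yolk protein gene Yp1 had 147, 22.9 and 23.5 CPM in the female libraries, against 0.098, 4.91 and 0.052 CPM in the male libraries, and Yp2 and Yp3 were likewise above every male library in all 3 females. The fat body gene apolpp overlapped, with 25.2, 6.49 and 6.544 CPM in females and 5.72, 17.95 and 15.2 CPM in males. Ovary and eggshell markers summed to 3.82 to 6.23 CPM in females and 5.91 to 15.0 CPM in males, with bam at 0 counts. Of the other lists, haemocyte markers reached 1 CPM for 5 of 7 genes (21.7 to 51.8 CPM in females, 20.6 to 29.4 CPM in males), Malpighian tubule markers for 3 of 5, trachea markers for 2 of 3, nervous system markers for 4 of 4, testis markers for 1 of 8 and salivary gland markers for 0 of 4. The part of these differences in the members' levels was not tested, and in bulk midguts fewer cells of a type and less RNA per cell cannot be told apart.

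Across the 67 members the ratio of female to male mean ran from 1.71 to 9.28 with a median of 2.11; it was at least 2 for 42 members, at least 3 for 13 and at least 5 for 6. The female mean was 6.46 to 3924 CPM, at least 1000 CPM for 5 members, 100 to 1000 CPM for 14 and under 100 CPM for 48. The median member had 36.2 CPM in females and 15.4 CPM in males. Together the members took 1.573%, 1.588% and 1.705% of counts in the female libraries, against 0.5592%, 0.5503% and 0.7396% in the male libraries. The 4 members with the most counts, CG12057, CG11911, CG5506 and CG6770, made up 60.5% to 63.0% of the members' counts in females and 56.5% to 63.5% in males. No member had fewer than 36 counts in any library.

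**Figure D1:**
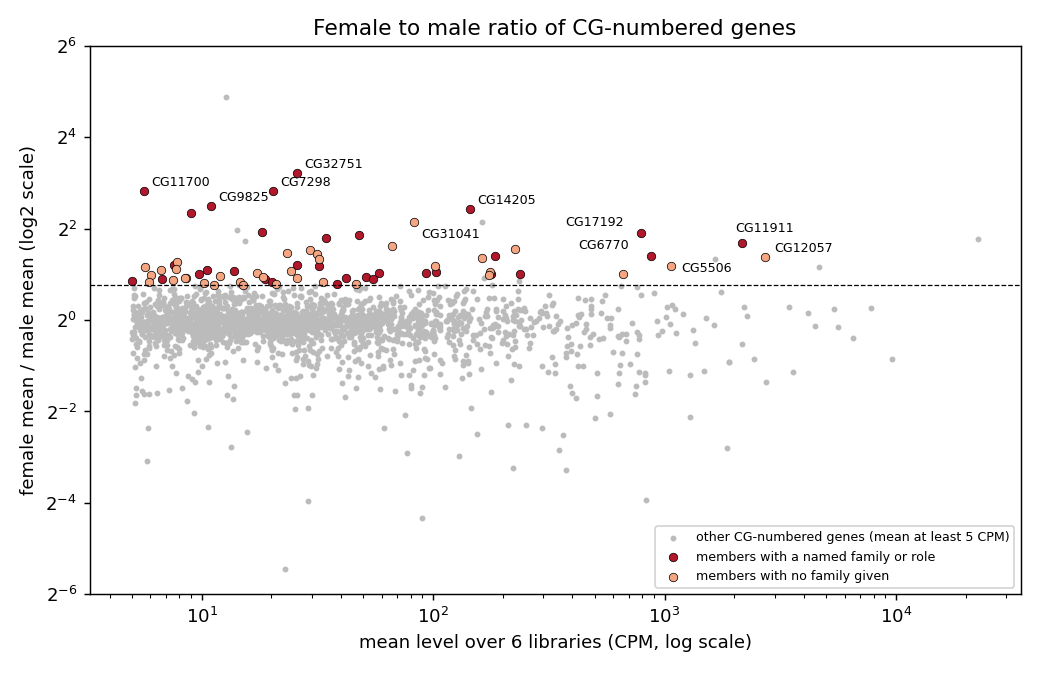
Ratio of female to male mean CPM (vertical axis, log2 scale) against the mean CPM over the 6 libraries (horizontal axis, log scale) for CG-numbered genes averaging at least 5 CPM; the 1 gene with 0 counts in females is not drawn. Coloured points are the members, which lie above the dashed line at 1.7 by construction, and CG32751 has the highest member ratio, 9.28.

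In a test over all 8941 genes with enough counts (edgeR's quasi-likelihood test, Benjamini-Hochberg adjusted p under 0.05), 3.87% of genes were higher in females (346 genes) and 5.53% higher in males (494 genes), and 63 of the 67 members were among the 346; as the same contrast chose the members, nothing is read from that count. The 346 higher in females became 171 without female library 1, 219 without female library 3 and 164 without male library 2. CG10182, CG15044, CG18327 and CG7298 were the members that did not pass. Libraries of the sexes did not overlap, with females higher, for 9.34% of all tested genes. At 5 CPM there were 2020 CG-numbered and 4327 named genes. For the same thresholds turned toward males, 170 CG-numbered and 214 named genes qualified, against 74 CG-numbered and 89 named genes toward females. The shares toward females were 3.66% of CG-numbered and 2.06% of named genes. Toward males the share was likewise higher among CG-numbered genes.

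CG8675 and CG13097 stood just inside the ratio at 1.71 each, and CG3706 at 1.696 and CG9300 at 1.69 just outside. By mean level, CG7402 at 5.01 CPM and CG11700 at 5.62 CPM were inside, while CG4650 at 4.98 CPM and CG8850 at 4.72 CPM were outside. By separation of the libraries, the lowest female and highest male values were 16.0 and 14.5 CPM for CG13097 and 16.6 and 15.0 CPM for CG33120, against 185 and 209 CPM for CG8745 and 4.78 and 5.86 CPM for CG32686. In all, 49 further CG-numbered genes missed by the mean level alone, 3 by the separation alone and 38 by a ratio between 1.5 and 1.7. The lowest female library was at least 2 times the highest male library for 14 members and under 1.2 times for 7.

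A family or role could be given to 32 members, from synonyms in the RefSeq gene table or from general knowledge of the fly proteome. The other 35 are given no family.

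The serine protease members, CG11911, CG11912, CG8299 and CG4053, belong to the trypsin-like family of secreted digestive enzymes that cut proteins in the gut lumen. CG11911 had 3295, 2886 and 3712 CPM in the female libraries, against 622, 1017 and 1447 CPM in the male libraries. All female libraries lay above all male ones, and the males spread more widely, with a coefficient of variation of 12.5% in females and 40.1% in males. Its neighbour on arm 2L, CG11912, had 273, 231 and 298 CPM in females and 66.8, 101 and 138 CPM in males, a ratio of 2.63. CG8299 had 160.0, 151 and 107 CPM in females and 51.96, 60.8 and 89.3 CPM in males, with its lowest female library only 1.1996 times its highest male library. CG4053 differed in another way, since its male libraries were nearly equal: 68.2, 65.4 and 79.97 CPM in females, against 37.6, 38.3 and 39.03 CPM in males. Per kilobase of exon, which allows levels to be compared between genes, the female means were 3399.9 CPM per kb for CG11911, 298 for CG11912, 160 for CG8299 and 77.0 for CG4053, and the male means 1061, 113, 77.0 and 41.4 CPM per kb in the same order.

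Both neighbourhoods also hold serine protease genes that are not members. CG33127, a serine protease homologue next to the 2L pair, had 690.4 ± 64.4 CPM in females and 831 ± 132 CPM in males (SD, n = 3 each), with overlapping libraries and a log2 fold change (female over male) of -0.21 ± 0.17 (SE, by edgeR, adjusted p = 0.563). Around CG4053 on 3R, 6 further protease genes were tested. CG31269 was lower in females, with 28.5 ± 5.34 CPM, and males had 49.1 ± 4.89 CPM (log2 fold change -0.73 ± 0.17, by edgeR, adjusted p = 0.0176). That call was lost without female library 1 or male library 1 (adjusted p 0.00284 to 0.0833 over the alternatives, by edgeR or DESeq2). CG31265, CG17475, CG31266 and CG31267 did not pass, with log2 fold changes of 0.03, -0.21, 0.15 and -0.21. CG5246 had 179 ± 23.0 CPM in females and 131 ± 23.0 CPM in males and passed only with DESeq2 or without male library 1 (by edgeR, adjusted p = 0.0649; 0.0115 to 0.243 over the alternatives, by edgeR or DESeq2). Among the 29 tested named serine proteases of the gut, 12 rose in females, 2 fell and 15 did not pass, against 3.87% of all tested genes called higher and 5.53% called lower in females. They had a median log2 fold change of 0.46, against -0.02 for all 8941 genes. Without male library 2 the 12 became 7. Jon99Fi, a serine protease of the Jonah family, reached 2529, 2377 and 3208 CPM in females, against 372, 592 and 698 CPM in males (log2 fold change 2.34 ± 0.24, by edgeR, adjusted p = 0.000174). Jon74E and Jon65Aii had log2 fold changes of 1.68 ± 0.19 and 1.46 ± 0.18 (by edgeR, adjusted p = 0.000403 and 0.0007). Ser8 went the other way, with 189 ± 33.3 CPM in females and 540 ± 36.6 CPM in males (log2 fold change -1.45 ± 0.18, by edgeR, adjusted p = 0.000731), and Ser6 was the other gene higher in males.

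Lipase members were CG17192, a secreted enzyme of the pancreatic lipase family that splits dietary fat, and CG3635 of the acid lipase family. CG17192 had 1237, 1157 and 1338 CPM in the female libraries, against 316, 358 and 327 CPM in the male libraries. Both sexes were tight, with coefficients of variation of 7.28% in females and 6.55% in males, and the ratio was 3.73. CG3635 was also even within a sex, at 70.3, 67.3 and 65.7 CPM in females and 39.5, 33.5 and 32.9 CPM in males.

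CG17192 sits in a run of related lipase genes on 3R in which neighbours differed in direction. CG6296, left out by name, had a mean of 264 ± 51.7 CPM in females and 59.9 ± 3.96 CPM in males. CG6295, another of the run, had 4364 ± 499.7 CPM in females and 3947 ± 676 CPM in males and did not pass (log2 fold change 0.20 ± 0.17, by edgeR, adjusted p = 0.607). CG6283 was lower in females, at 317, 444 and 339 CPM, against 1714, 955 and 722 CPM in males (log2 fold change -1.56 ± 0.31, by edgeR, adjusted p = 0.0136). Its call was lost without female library 3 (adjusted p 0.00535 to 0.0685 over the alternatives, by edgeR or DESeq2). CG6277 had 402.5 ± 114 CPM in females and 1099.5 ± 480.2 CPM in males (log2 fold change -1.38 ± 0.34, by edgeR, adjusted p = 0.0369). It did not pass without female library 1, female library 3 or male library 2, nor without the filter on low counts (adjusted p 0.00808 to 0.110 over the alternatives, by edgeR or DESeq2). CG17191 did not pass (log2 fold change -0.89 ± 0.62, by edgeR, adjusted p = 0.493). Of 5 tested named lipases, edgeR called 0 in either direction, though 2 were higher and 1 lower in females at an unadjusted p under 0.05, and DESeq2 called these 3. They are mag, Lip3 and bmm; mag had 2690.1 ± 44.7 CPM in females and 1983 ± 249.8 CPM in males (log2 fold change 0.50 ± 0.16, by edgeR, adjusted p = 0.0789). The intracellular lipase bmm had 170.1 ± 29.9 CPM in females and 103 ± 52.2 CPM in males (log2 fold change 0.77 ± 0.32, by edgeR, adjusted p = 0.220). Lip3 had 3.23, 7.002 and 2.79 CPM in females, against 170, 40.9 and 32.7 CPM in males (by edgeR, adjusted p = 0.0794). Without male library 1, bmm and Lip3 passed in edgeR. A further listed lipase, Hsl, was missed through the spelling of its symbol and is not counted among the 5. It did not pass (log2 fold change 0.13, by edgeR, adjusted p = 0.700).

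**Figure D2:**
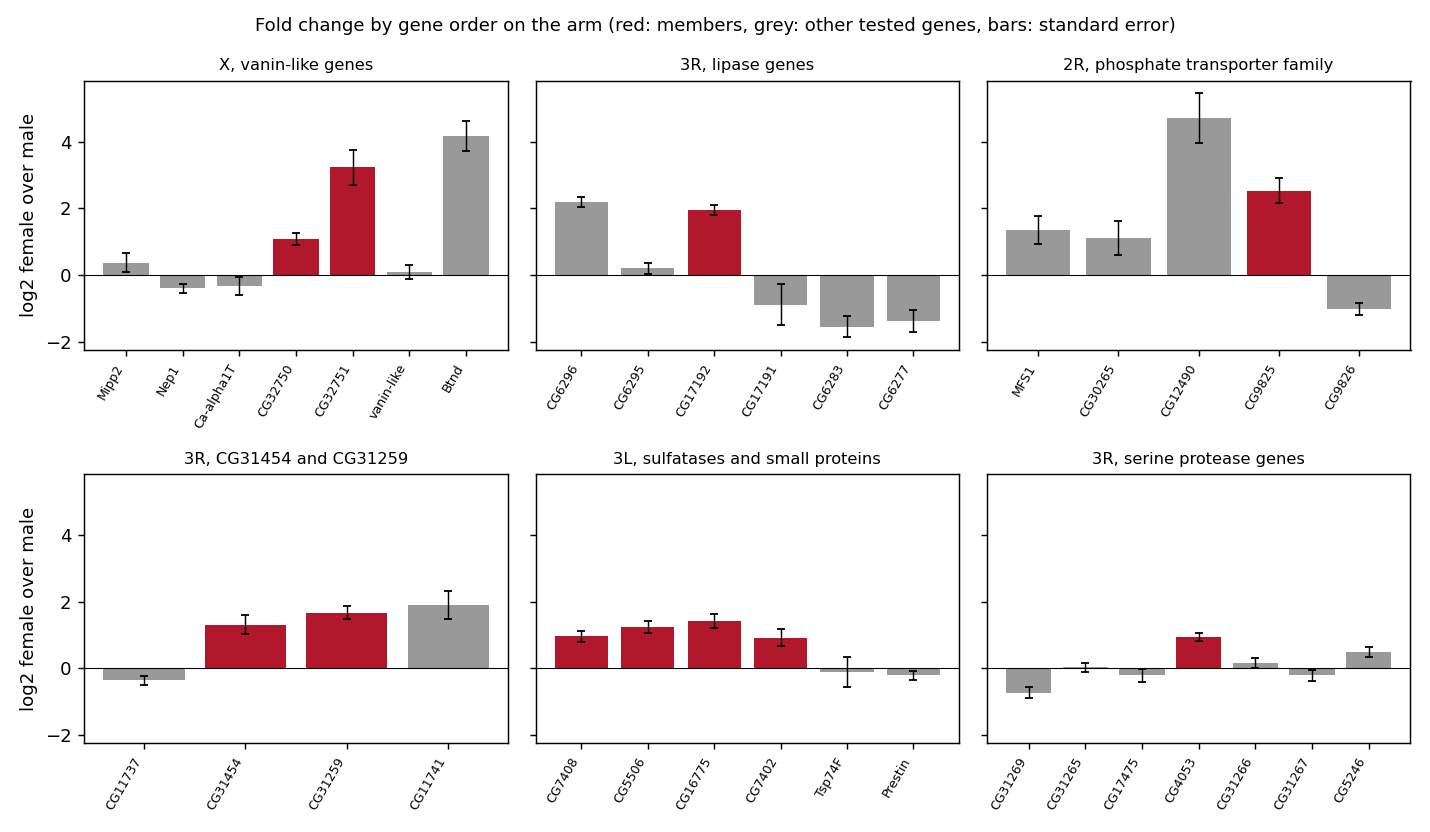
Log2 fold change of female over male (vertical axes, edgeR, bars show the standard error) of tested genes in their order along the chromosome arm (horizontal axes) at 6 places that hold members, in red. In the lipase run the member CG17192 and CG6296 are positive and CG6283 and CG6277 negative, and on 3L the members CG7408, CG5506, CG16775 and CG7402 follow each other.

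Transporter members carry solutes across membranes. CG9825 and CG9864 belong to the major facilitator family of phosphate and organic anion transporters, CG7912 to the sulfate anion transporters and CG18327 to the mitochondrial carriers. CG9825 was low in males, with 20.9, 15.1 and 20.1 CPM in females, against 1.37, 4.496 and 4.09 CPM in males, a ratio of 5.63. CG9864 had 139.6, 99.3 and 136 CPM in females and 59.4, 67.9 and 55.4 CPM in males. CG7912 showed 54.5, 46.9 and 60.1 CPM in females, against 7.65, 18.6 and 20.02 CPM in males, and male library 1 was the lowest of all. Male library 1 was also the lowest for CG9825 and for CG18327, which had 19.5, 18.1 and 18.7 CPM in females and 3.01, 13.4 and 10.3 CPM in males. Its male coefficient of variation was 60.04%, and without male library 1 CG18327 no longer met the thresholds. Its exons overlap those of CG8323 on the same strand, so reads may be divided between them.

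The gene next to CG9825 on 2R, CG12490, was also higher in females, with 2.01, 3.58 and 3.58 CPM, and the males had 0.163, 0 and 0.182 CPM (log2 fold change 4.71 ± 0.75, by edgeR, adjusted p = 0.00278). On the other side CG9826 was lower in females, with 25.4 ± 2.40 CPM, and males had 53.3 ± 12.8 CPM (log2 fold change -1.01 ± 0.17, by edgeR, adjusted p = 0.00391). MFS1, a named gene nearby in the same family, had 52.7, 49.4 and 43.8 CPM in females and 8.27, 28.2 and 23.2 CPM in males. It did not pass in edgeR (log2 fold change 1.35 ± 0.42, adjusted p = 0.113), but did with DESeq2 and without male library 1 (0.000627 to 0.272 over the alternatives, by edgeR or DESeq2). CG8323 and CG18324, carriers beside CG18327, had log2 fold changes of -0.39 ± 0.21 and -0.49 ± 0.18 (by edgeR, adjusted p = 0.343 and 0.132). Both were called lower in females without male library 1, at 0.0296 and 0.0183, the lowest adjusted p over the alternatives, whose highest were 0.658 and 0.369. Of 13 tested named transporters of the phosphate and organic anion family, edgeR called 0 in either direction, with 2 higher and 2 lower in females at an unadjusted p under 0.05 and 1, MFS1, called by DESeq2. The median log2 fold change of the 13 was 0.04. MFS10 and MFS14 followed MFS1 by p, with log2 fold changes of 0.40 ± 0.14 and -0.55 ± 0.21 (by edgeR, adjusted p = 0.107 and 0.152).

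CG14205, CG10182 and CG33337 belong to the acyltransferase family named after the worm gene nrf-6, multipass membrane proteins whose worm members act in the uptake of lipids and drugs by the intestine. CG14205 had 167, 206 and 357 CPM in the female libraries, against 56.9, 31.00 and 48.1 CPM in the male libraries. Female library 3 stood well above the other two females, and even the lowest female library was 2.94 times the highest male library. CG10182 had 60.5, 84.2 and 80.3 CPM in females and 18.9, 9.63 and 32.99 CPM in males, and its spread in males was wide, with a coefficient of variation of 57.4%. CG33337, which lies next to CG10182 on 3R, had 28.3, 24.7 and 33.6 CPM in females, against 8.399, 6.52 and 7.71 CPM in males. Both genes of that pair overlap the same antisense RNA gene, asRNA:CR46469. Without a stated strand setting of the counting, how reads in the shared exon stretches were assigned is unknown. All 3 members were lowest in male library 2 among the males, as were 31.3% of all members and 25.1% of the other CG-numbered genes at 5 CPM. Of the listed relatives, drd and rtet were tested and edgeR called 0, with 1 lower in females at an unadjusted p under 0.05 and 0 called by DESeq2; drd, a fly gene of the family, had 1.65 ± 1.24 CPM in females and 4.86 ± 2.25 CPM in males (log2 fold change -1.49 ± 0.64, adjusted p = 0.224). The gene rtet, known as a transporter and not as an acyltransferase, had a log2 fold change of -0.18 ± 0.16 (by edgeR, adjusted p = 0.610).

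CG32751 and CG32750 are neighbours on the X chromosome and encode proteins of the vanin and biotinidase family, enzymes that split amides such as pantetheine and biocytin and so release vitamins. Their RefSeq entries share the older gene model CG3648. CG32751 had the largest ratio of all members, with 43.4, 24.3 and 71.6 CPM in the female libraries, against 3.07, 4.18 and 7.76 CPM in the male libraries, a ratio of 9.28. Its female libraries varied (coefficient of variation 51.2%), but the lowest was 3.14 times the highest male library. CG32750 had 67.9, 62.7 and 106 CPM in females and 40.5, 33.9 and 40.9 CPM in males, a ratio of 2.05. It did not meet the thresholds without female library 3, the highest one.

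The run goes on with vanin-like and Btnd. Btnd had 15.9, 10.9 and 5.13 CPM in females, against 0.588, 0.855 and 0.417 CPM in males, again with no overlap (log2 fold change 4.17 ± 0.45, by edgeR, adjusted p = 0.000319). Between it and CG32751, vanin-like had 182 ± 25.5 CPM in females and 175 ± 61.5 CPM in males (log2 fold change 0.10 ± 0.21, by edgeR, adjusted p = 0.872).

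The sulfatase members, CG7408 and CG7402, resemble arylsulfatases, which remove sulfate groups from substrates such as sulfated sugars. CG7408 had 57.5, 50.5 and 57.3 CPM in females and 35.8, 29.3 and 22.8 CPM in males. CG7402 was close to the threshold on the mean level, with 6.76, 6.01 and 6.61 CPM in females, against 2.75, 4.81 and 3.12 CPM in males. It no longer met the thresholds without any 1 of the female libraries or without male library 1.

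These sulfatase genes flank CG5506 and CG16775 on 3L, so that 4 members follow each other in the order CG7408, CG5506, CG16775 and CG7402, with 1 other gene between CG5506 and CG16775. CG5506 and CG16775 encode short proteins of 180 and 191 residues and have no family here. CG5506 had 1273, 1663 and 1486 CPM in females and 708, 559 and 687 CPM in males, and CG16775 had 200.3, 264 and 242 CPM in females, against 89.5, 69.3 and 116 CPM in males. For both, female library 1 was the lowest female and male library 2 the lowest male. The ratios along the run were 1.88, 2.26, 2.57 and 1.81. CG7408 and CG5506 overlap on opposite strands, and how reads in the shared exon stretch were assigned is unknown, as no strand setting is stated.

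Ribosome biogenesis held the largest group with a role, 7 members. CG4364 is the homologue of pescadillo, needed for the large ribosomal subunit, and CG8545 that of NOP2, which methylates large-subunit rRNA. CG3071, CG1671, CG12325 and CG7246 correspond to UTP15, UTP13, PWP2 and UTP6, all parts of the small-subunit processome known from yeast, and CG8611 is a DEAD-box RNA helicase. CG4364 had 253, 225 and 233 CPM in the female libraries, against 141, 106 and 109 CPM in the male libraries. CG8545 had 54.6, 48.2 and 43.8 CPM in females and 36.7, 28.9 and 19.2 CPM in males. CG3071 had 26.7, 26.2 and 24.5 CPM in females, against 17.7, 10.01 and 15.96 CPM in males. Ratios were 2.001 for CG4364, 1.73 for CG8545 and 1.77 for CG3071. For CG1671 the values were 30.3, 20.3 and 22.9 CPM in females and 17.4, 11.1 and 10.8 CPM in males. For CG12325 they were 14.7, 14.5 and 13.9 CPM in females and 7.91, 5.699 and 6.48 CPM in males. CG8611 had 13.1, 12.9 and 13.02 CPM in females, against 7.45, 6.08 and 5.73 CPM in males. Its female coefficient of variation of 1.06% was the lowest of any member in CPM from library totals, without TMM scaling. The seventh, CG7246, averaged 8.79 ± 1.45 CPM in females and 4.73 ± 0.809 CPM in males (SD, n = 3 each). Ratios in the group ran from 1.73 to 2.15, above the threshold of 1.7 that chose them.

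Named genes of ribosome biogenesis were tested as well. The list held 42 symbols, of which only 33 were matched to an identifier. Of these 33, 17 rose in females, 0 fell and 16 did not pass in edgeR, against 3.87% of all tested genes called higher and 5.53% called lower in females. The median log2 fold change was 0.60, against -0.02 for all genes; none was lower at an unadjusted p under 0.05 and DESeq2 called 0 lower. The list holds 4 tested genes known for another role (Rrp1, noi, Nup44A and Set), none of which passed. The 17 became 7 without female library 1 and 6 without male library 2. Non1, a nucleolar GTPase, had 768 CPM, 682 CPM and 779 CPM in females, against 418, 289 and 313 CPM in males (log2 fold change 1.18 ± 0.17, by edgeR, adjusted p = 0.00159). Nop56 and nop5, core proteins of the particles that guide rRNA methylation, had log2 fold changes of 1.08 ± 0.16 and 0.91 ± 0.15 (by edgeR, adjusted p = 0.00164 and 0.00362), and peng one of 0.78 ± 0.13 (by edgeR, adjusted p = 0.00437).

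**Figure D3:**
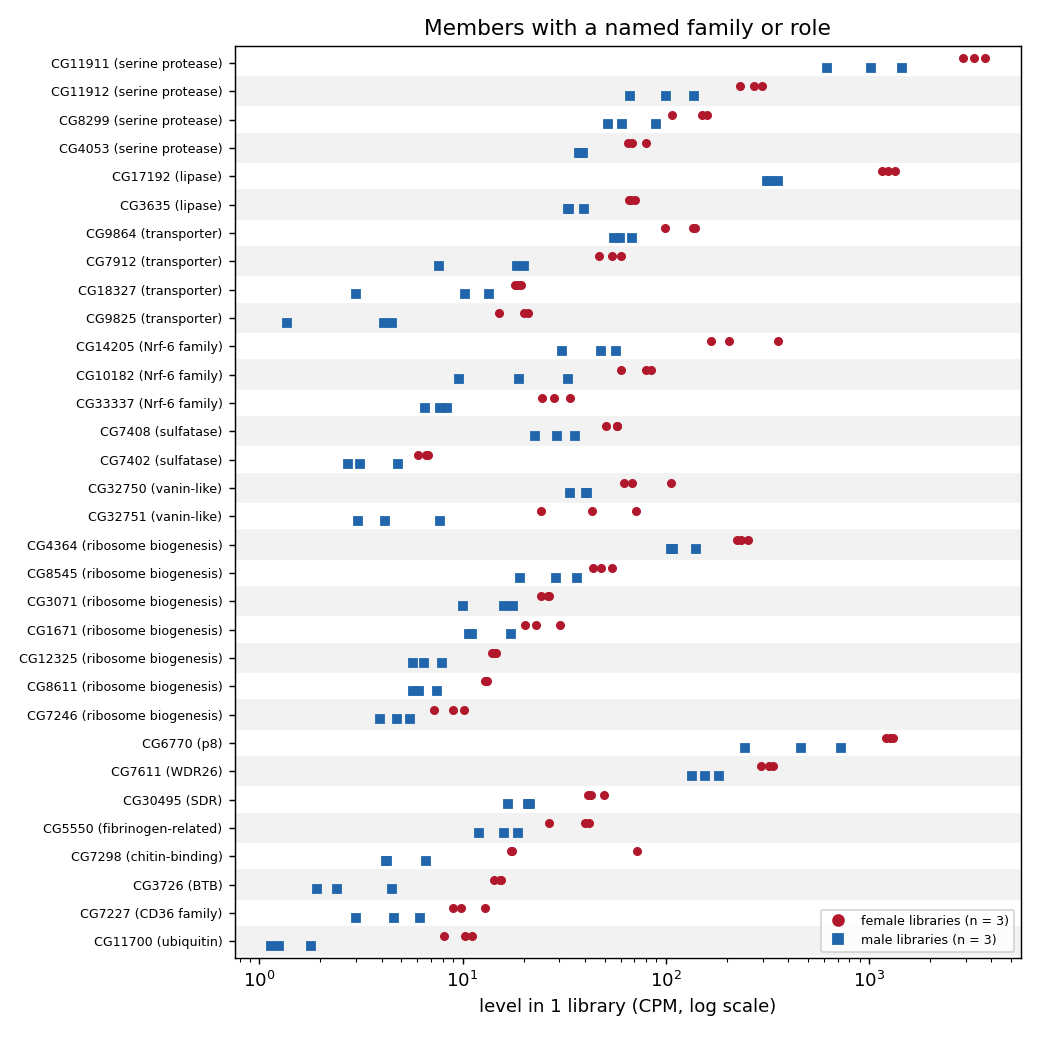
CPM in each library (horizontal axis, log scale) of the 32 members with a family or role (vertical axis); circles are the 3 female and squares the 3 male libraries. In every row the circles lie to the right of the squares, as the choice of members requires, and the ratio of means is largest for CG32751, CG7298, CG11700 and CG9825.

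The order of the libraries within a sex was not used to choose members and differed between families. All 7 ribosome biogenesis members were highest in female library 1 among females and in male library 1 among males, which held for 16 of the 33 listed named genes and for 12.7% of other genes at 5 CPM. All 4 serine protease members were lowest in male library 1 and highest in male library 3 among the males, as were 14 of the 29 listed named serine proteases and 20.1% of other genes at 5 CPM. These ranks use CPM from library totals, and some of them rest on small differences. The males of CG4053 had 37.6, 38.3 and 39.03 CPM, and the females of CG8611 13.1, 12.9 and 13.02 CPM. Female libraries 1 and 2 were also close for CG12325 (14.7 and 14.5 CPM) and CG3071 (26.7 and 26.2 CPM). Over all 67 members, the highest female library was library 1 for 31, library 2 for 10 and library 3 for 26. The median coefficient of variation of the members was 13.1% in females and 18.9% in males. For the other 1953 CG-numbered genes at 5 CPM it was 12.3% in females and 14.2% in males. Unlike the order of the libraries, this spread depends on the values that chose the members, so nothing is read from the difference.

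**Figure D4:**
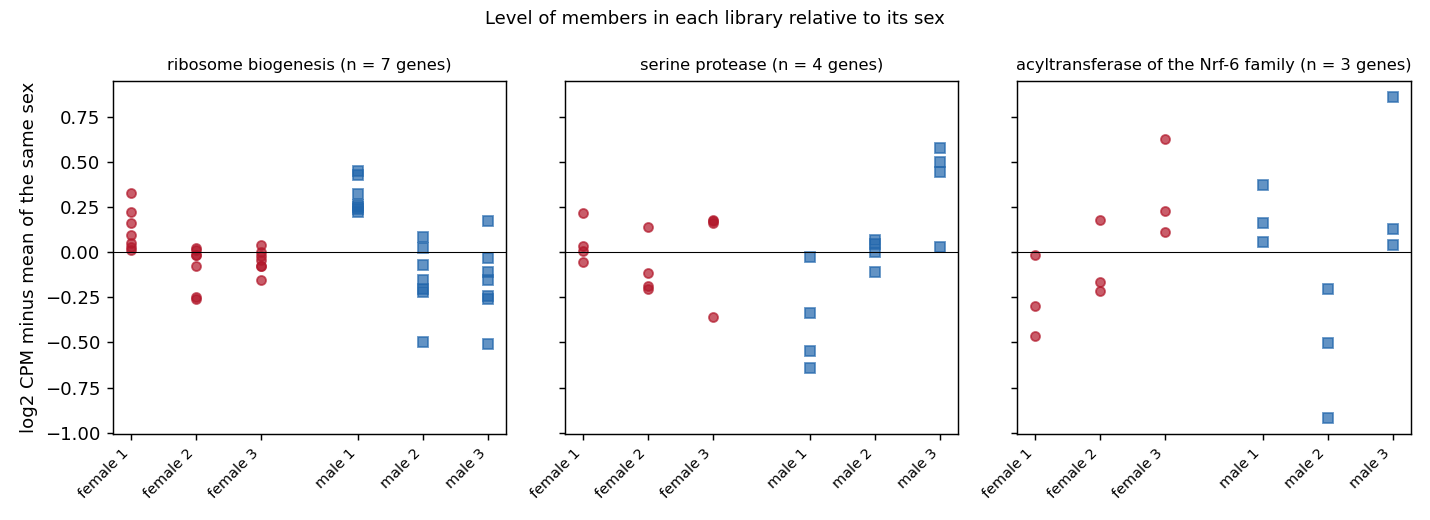
Log2 CPM of each member minus the mean of its sex (vertical axes) in the 6 libraries (horizontal axes), for 3 families; each point is 1 gene, circles for female and squares for male libraries. With CPM from library totals, ribosome biogenesis members lie highest in male library 1, where the serine protease members lie lowest, CG4053 by little (-0.026).

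Each of 8 further members stands alone in its family. CG6770 encodes the small nuclear protein p8, 69 residues long, whose mammalian relative responds to stress. It had 1318, 1268 and 1210.1 CPM in females, against 727, 245 and 461 CPM in males, so that the females were even and the males ranged widely (coefficient of variation 4.27% in females and 50.5% in males). On one side of it on 2L lie 2 genes called higher in females. They are Plzf, a zinc finger protein gene next to CG6770, with 17.3 ± 1.41 CPM in females against 3.63 ± 0.848 CPM in males (log2 fold change 2.32 ± 0.22, by edgeR, adjusted p = 0.000122), and PLCXD, the next gene beyond, with 3.25 ± 0.931 CPM in females against 0.5996 ± 0.312 CPM in males (log2 fold change 2.46 ± 0.50, by edgeR, adjusted p = 0.0105). CG6785, on the other side of CG6770, did not pass (log2 fold change 1.21, by edgeR, adjusted p = 0.155). The call of PLCXD was lost without female library 3 (adjusted p 0.0001 to 0.0507 over the alternatives, by edgeR or DESeq2).

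CG11700 is a ubiquitin gene on the X. It had 10.2, 11.1 and 8.13 CPM in females, against 1.797, 1.14 and 1.25 CPM in males, a ratio of 7.05. Its neighbour Ubi-p5E, a polyubiquitin gene, had 544 ± 38.0 CPM in females and 285 ± 23.7 CPM in males (log2 fold change 0.99 ± 0.15, by edgeR, adjusted p = 0.00178). Ubiquitin genes are near-identical copies, so how reads were shared between these genes is uncertain and both values are too. CG7298, with a chitin-binding domain of the kind found in the peritrophic matrix that lines the midgut, had 17.4, 17.5 and 72.3 CPM in females, against 4.22, 4.27 and 6.64 CPM in males. Its ratio of 7.09 became 3.46 without female library 3. Of 9 tested named chitin-binding and chitinase genes, 0 were higher in females in edgeR (0 at an unadjusted p under 0.05 and 0 by DESeq2), 2 were lower, against 5.53% of all tested genes, and 7 did not pass, with a median log2 fold change of -0.20. The 2 were Cht4, with 5.91 ± 0.929 CPM in females against 18.9 ± 9.24 CPM in males (by edgeR, adjusted p = 0.0199), and Muc68Ca, with 1.404 ± 0.123 CPM in females against 4.003 ± 1.003 CPM in males (by edgeR, adjusted p = 0.0159). Muc68Ca was lost without male library 2, and Cht4 without any 1 of the female libraries, without male library 3 or without the filter on low counts (by edgeR, adjusted p up to 0.115 for Muc68Ca and 0.101 for Cht4 over the alternatives).

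CG3726, a transcription factor with a BTB domain, had 14.3, 15.4 and 15.3 CPM in females, against 4.51, 2.41 and 1.93 CPM in males; the females were nearly equal and the ratio was 5.09. CG7611, the homologue of WDR26, a subunit of a ubiquitin ligase complex, had 335, 293 and 322 CPM in females and 183, 155 and 134 CPM in males. CG30495, a short-chain dehydrogenase, had 42.7, 49.5 and 41.5 CPM in females and 16.7, 21.4 and 20.96 CPM in males, while its neighbour and relative CG30491 had 11.9 ± 0.333 CPM in females and 11.9 ± 2.20 CPM in males (log2 fold change 0.05 ± 0.18, by edgeR, adjusted p = 0.933). CG5550, a fibrinogen-related protein, had 26.6, 40.3 and 41.7 CPM in females and 18.8, 12.00 and 16.1 CPM in males. CG7227 belongs to the CD36 family of scavenger receptors, which take up lipids, and had 12.9, 9.01 and 9.88 CPM in females, against 3.01, 4.59 and 6.14 CPM in males. Its relative pes, the next gene along, had 155 ± 11.2 CPM in females and 133 ± 11.4 CPM in males and did not pass (log2 fold change 0.28 ± 0.13, by edgeR, adjusted p = 0.242).

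The 35 members with no family included CG12057, the member with the highest level per kilobase of exon in females. CG12057, on the X, encodes 219 residues and had 3669, 4188 and 3917 CPM in the female libraries, against 1125, 1289 and 2103 CPM in the male libraries. Females were within a coefficient of variation of 6.62%, while male library 3 stood above the other males. Per kilobase of exon its level was 4399.6 CPM in females and 1688 CPM in males, above CG11911 in both sexes. CG8661, also on the X with 198 residues, had 861, 919 and 859 CPM in females and 416, 399 and 505 CPM in males. CG5770 had 353, 278 and 377 CPM in females, against 101, 104 and 139 CPM in males. The adjacent CG5773 on 2R had 36.6, 30.2 and 34.4 CPM in females and 14.2, 16.5 and 22.9 CPM in males. The adjoining CG5767, which is no member, had 545 ± 90.8 CPM in females and 612 ± 38.1 CPM in males (log2 fold change -0.12 ± 0.15, by edgeR, adjusted p = 0.757).

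CG31041 had the largest ratio without a family, 4.46, with 113, 131 and 159.8 CPM in females and 25.8, 33.4 and 31.4 CPM in males. Also above 100 CPM in females were CG6659, with 250.4, 219 and 243 CPM in females and 84.6, 122 and 139 CPM in males, and CG14629, with 225, 211 and 261 CPM in females and 99.3, 116 and 138 CPM in males. CG2765 had 142, 113 and 169 CPM in females, against 55.6, 66.9 and 64.4 CPM in males. In each of these genes every female library exceeded every male library by at least 1.5 times.

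CG31259 and CG31454 lie side by side on 3R and share the older gene model CG11740, each encoding 455 residues. CG31259 had 121, 102 and 78.2 CPM in females, against 24.3, 38.6 and 35.1 CPM in males. CG31454 had 10.8, 9.47 and 13.1 CPM in females and 2.81, 4.69 and 6.301 CPM in males. The next gene, CG11741, was also higher in females, with 4.35 ± 1.92 CPM, and males had 1.22 ± 0.113 CPM (log2 fold change 1.90 ± 0.41, by edgeR, adjusted p = 0.0146), a call lost without female library 1, female library 2 or male library 2 (adjusted p 0.000735 to 0.0656 over the alternatives, by edgeR or DESeq2). On the other side CG11737 had 55.3 ± 4.02 CPM in females and 73.8 ± 7.88 CPM in males (log2 fold change -0.36 ± 0.14, by edgeR, adjusted p = 0.164).

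The other members with no family, together with CG31454 and CG5773, are 25 genes with a female mean of 7.60 to 59.2 CPM (median 18.7) and a male mean of 3.51 to 34.2 CPM. Their ratios ran from 1.71 to 2.87 with a median of 1.92, and CG14615 was the highest. From 33.0 to 59.2 CPM in females lie CG15019, CG15044, CG3348, CG14615, CG15674, CG42700 and CG5151. Lower still were CG5114, CG33120, CG6403, CG13097, CG8010, CG15544, CG8675, CG2875, CG2260, CG3594, CG14456, CG4880, CG33172, CG42541, CG6793 and CG12811. CG3348 had 34.4, 32.2 and 70.8 CPM in females, against 19.1, 17.04 and 18.4 CPM in males, with female library 3 far above the other females. CG15044, which did not pass in edgeR, had 32.8, 52.2 and 53.6 CPM in females and 28.7, 7.504 and 14.9 CPM in males, so that its highest male was close to its lowest female. Its ratio of 2.71 became 4.13 without male library 1; leaving out any 1 library moved the ratio of the other 65 members by less than 1.5 times. CG14615 was even, with 43.5, 42.6 and 44.9 CPM in females and 14.9, 12.9 and 17.8 CPM in males.

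**Figure D5:**
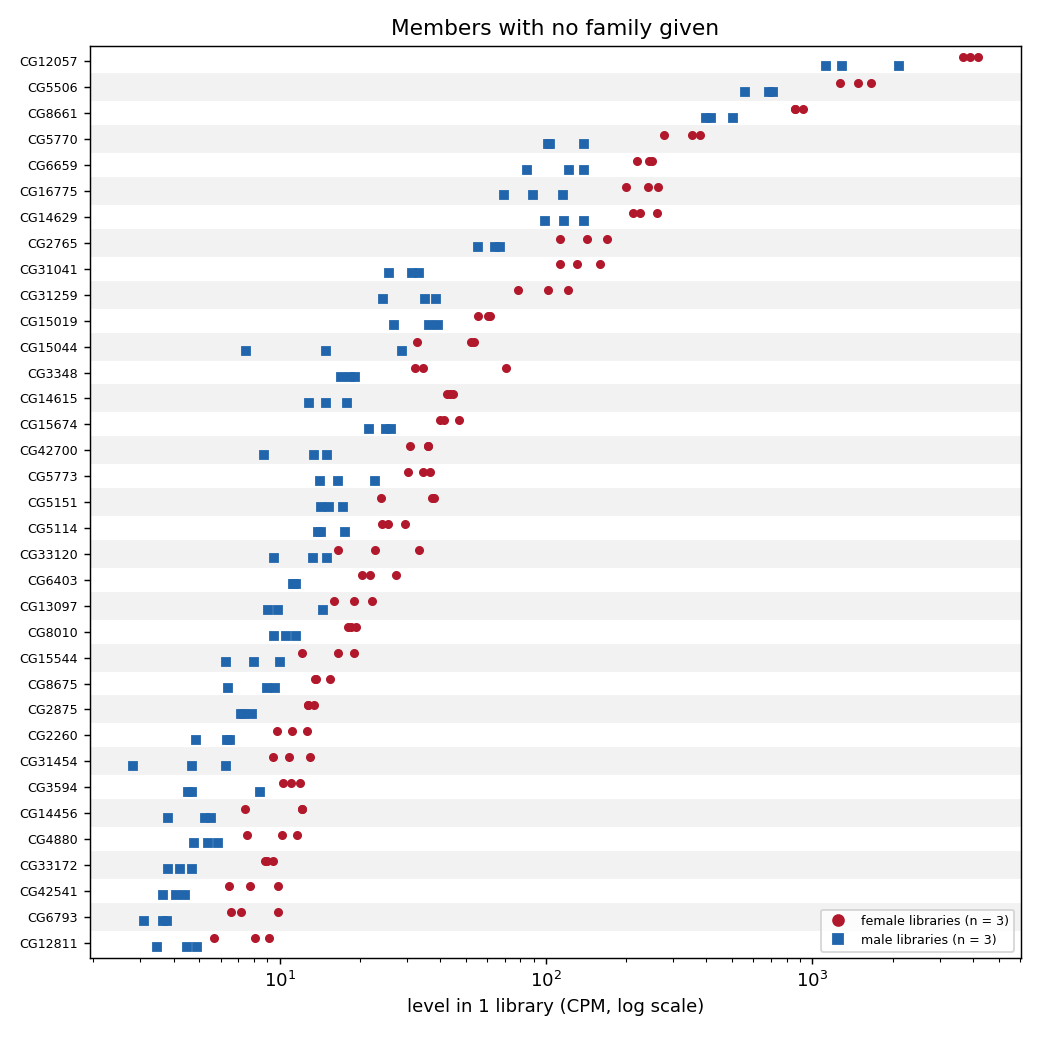
CPM in each library (horizontal axis, log scale) of the 35 members with no family given (vertical axis, by female mean); circles are the 3 female and squares the 3 male libraries. CG12057 is the highest at a female mean of 3924 CPM, and most of the others lie below 100 CPM.

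By position, 21 of the 67 members (31.3%) were on the X, against 342 of the 1953 other CG-numbered genes at 5 CPM (17.5%). Arms 2L, 2R, 3L and 3R held 8, 15, 11 and 12 members. Members on the X had a median ratio of 2.03 and those on the autosomes one of 2.16; for the other CG-numbered genes it was 1.02 on the X and 0.944 on the autosomes. Among members with no family, 13 of 35 were on the X, and among the ribosome biogenesis members 3 of 7. There were 7 pairs of members with no other gene between them, which together held 14 members: CG11912 and CG11911, CG5773 and CG5770, CG7408 and CG5506, CG16775 and CG7402, CG10182 and CG33337, CG31259 and CG31454, and CG32750 and CG32751. The 2 genes of a pair lay on the same strand in 5 of the 7 pairs. Such pairs were not counted among other genes, so nothing is read from their number or strand.

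In gene structure, the median protein had 445 residues, against 407 for the other CG-numbered genes; members with no family had a median of 319 and ribosome biogenesis members one of 787. A single exon was annotated for 13.4% of members and 11.2% of the others, and a single transcript for 55.2% of members and 44.5% of the others. An exon overlapped a gene on the opposite strand for 17 members (25.4%), against 36.8% of the others. Such overlaps with protein-coding genes included CG12325 with alka, CG3348 with Hmu, CG15019 with Syx17, CG3071 with CG2924, CG3594 with TyrRS-m and CG42700 with CG8850. Without a stated strand setting, how reads in the shared exon stretches were assigned is unknown. On the same strand, 4 members overlapped another gene (5.97%, against 6.04% of the others). Besides CG18327 they were CG5151 with CG5157 and CG32152, CG33172 with CG43672, and CG2875 with DIP-alpha.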

How the data were processed

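RNA-seq counts of 3 female and 3 male midgut libraries were used. The authors deposited whole-number counts of reads per gene; the tools named are TopHat2 2.0.11 and HTSeq and the build is dm3, per the submitters' processing notes, while strand setting, annotation release and handling of reads with several matches are each not given in sources used here. Per the labels' protocols, strand-marking mRNA libraries were made from total RNA and read as pairs. No library was left out. Current symbols were matched by identifier (15002 of 15682 identifiers matched), and chromosome arm, gene order, exons and overlaps from the Ensembl annotation of BDGP6 by identifier; no coordinates are given because the builds differ.

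CPM was computed from library totals, which ranged from 23825935 to 38406746 counts; 3 counts correspond to at most 0.126 CPM, a limit that covers counting error only. Levels per kilobase divide CPM by the exon length. All genes passing filterByExpr by sex (minimum count 10, minimum total 15) entered edgeR 4.0.16 (R 4.3.3) and its quasi-likelihood test (TMM scaling, robust dispersion, sex alone, two-sided, Benjamini-Hochberg adjusted p under 0.05); the standard error is the log2 fold change divided by the root of F. The biological coefficient of variation was 23.7%. The steps were tested on simulated data. Alternatives were RLE scaling, no filter, the Wald test of DESeq2 1.42.0, a block for the replicate number, omission of each library in turn, and other thresholds for the members.

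Members and gene lists were chosen with earlier results of these data known. Values per library are given for up to 6 members of a family by mean level, for the 10 largest ratios and the 10 highest female means; of each list, up to 4 genes by p are named, and neighbours or relatives of members. Further members with no family (CG6659, CG16775, CG14629, CG2765, CG31259, CG31454, CG5773, CG3348, CG15044 and CG14615), Ser6, CG17191 and Hsl were named after their values were seen. Families rest on RefSeq synonyms and general knowledge, including the 3 carboxypeptidases left out.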

Additional observations from a re-analysis of the deposited data

How the results depend on the processing

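The number of members, 67, was 78 with TMM and 81 with RLE library sizes, 97 at a mean of at least 1 CPM, 52 at 10 CPM, 105 at a ratio of at least 1.5 and 42 at a ratio of at least 2. With the 3 carboxypeptidases kept, a choice made after seeing the data, it was 70. Leaving out 1 library gave 64 to 90 members, and 48 of the 67 met the thresholds in all 6 such settings as well as with TMM and RLE. The 19 others were CG11700, CG12811, CG13097, CG15019, CG15674, CG1671, CG18327, CG3071, CG32750, CG33120, CG3594, CG4880, CG5114, CG6793, CG7402, CG7408, CG8010, CG8545 and CG8675. Genes called higher in females, 346, numbered 365 with RLE, 382 without the filter, 487 with DESeq2 and 164 to 419 with 1 library left out; those higher in males, 494, numbered 482, 517, 632 and 332 to 513.

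Female and male libraries of the same number did not deviate together (correlations of -0.117, -0.199 and -0.099). Libraries of different numbers gave -0.066 to 0.218. With 3 libraries a sex these values cannot decide whether the numbers pair the libraries, and the labels do not state it. With the replicate number as a block, edgeR called 261 genes higher in females and 415 higher in males, and drd passed (adjusted p = 0.0272). Comparing females with males within each number gave 68 members.

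Of 420 values of 42 named genes outside the members under the alternatives, 385 kept direction and call, 17 lost the call, 12 gained it and 6 changed sign. The sign changes, all of genes that did not pass, were seen when 1 library was left out. Log2 fold changes then ran from -0.0519 to 0.444 for vanin-like, from -0.0514 to 0.101 for CG31265, from -0.362 to 0.0019 for CG17475 and from -0.0781 to 0.143 for CG30491; the cause was not tested. With 3 libraries a sex, differences under the spread between libraries are not detectable here. Searches of promoters and comparisons of proteins were not run, since no sequences were used here.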
